A study of Saccharomyces cerevisiae with 6 samples.

Results

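The mating genes of a cells described here are 10 of the 6687 features counted in the data: *STE2*, *STE6*, *MFA1*, *MFA2*, *BAR1* and *AGA2*, which a cells express and alpha cells do not, *AGA1*, which anchors the agglutinin, and *GPA1*, *STE4* and *STE18*, which encode the pheromone G protein. They were picked by name for their role in mating, with earlier results of these data known. All 10 were found, and all were above the minimum of 10 CPM in every comparison.

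Haploid budding yeast of mating type a secretes the lipid-modified peptide a-factor and listens for alpha-factor, the peptide made by the opposite mating type. Alpha-factor binds a receptor at the cell surface, the receptor releases the beta and gamma subunits of a G protein from its alpha subunit, and a MAP kinase cascade then arrests the cell cycle and turns on the genes for fusion. A set of a-specific genes is kept on in a cells by the transcription factor Mcm1 and is shut off in alpha cells, where the repressor alpha2 binds beside Mcm1 on the same operators.

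The libraries are mRNA-Seq of strain BY4741, a haploid a strain that in all groups carried a *URA3* multicopy plasmid of the pCM190 type and still had its own chromosomal *PPZ1*. One set of cells carried pCM190 with the *PPZ1* open reading frame behind the doxycycline-repressed tetO promoter (named PPZ1 here), and the control cells carried empty pCM190. *PPZ1* encodes a Ser/Thr protein phosphatase that is toxic in excess. Both were held overnight with doxycycline at 100 µg/ml in synthetic medium without uracil, freed of it, grown for 3.5 h to an OD600 of 0.55 and moved by filtration for 1 h into 2% galactose, 0.25% glucose or 2% glucose. Each of the 6 combinations is 1 library, so no group has a replicate. The ± values below are standard errors from read counting. The 95% intervals of levels are exact Poisson intervals of the counts, and those of ratios and log2 differences are normal approximations on the log scale. None of these covers variation between cultures or libraries.

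PPZ1 cells gave 3932576 reads in features in galactose, 1845237 in 0.25% glucose and 4921218 in 2% glucose, and control cells gave 3673635 in galactose, 6784469 in 0.25% glucose and 5644263 in 2% glucose. Levels are given as CPM, which are the authors' scaled values per 1000000 reads of the largest library. The plasmid gene was at 2705 CPM in PPZ1 cells in galactose, against 75.0 CPM in control cells, at 17798 CPM in PPZ1 cells in 0.25% glucose, against 94.3 CPM, and at 12538 CPM in PPZ1 cells in 2% glucose, against 78.8 CPM, so the excess was smallest in galactose. The mating type fitted the label in all 6 libraries: the 6 a-specific genes summed to between 529 and 1957 CPM and the 4 alpha-specific genes to between 33.7 and 44.0 CPM. Of the alpha-specific genes, both alpha-factor genes were at or below 2.5 CPM, the a-factor receptor gene *STE3* reached 15.8 CPM and the agglutinin gene *SAG1* 35.1 CPM. The library of PPZ1 cells in 0.25% glucose stood apart, because its difference from control cells fell with gene length over all genes. The main log2 differences that rest on it are given with and without that trend, and levels and ratios of levels keep it.

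The bases before the 6 a-specific genes were searched for the letters of an Mcm1 site beside an alpha2 core. The genes themselves were picked by name and not by these letters. A script looked in the 400 bases before each start codon for CC and GG with 6 bases between them, the core letters of an Mcm1 site, with the alpha2 core CATGT (or ACATG) within 14 bases on either side, on both strands. Each run below is 38 bases on the strand of the gene, 5′ to 3′, read from the RefSeq copy of assembly R64, with the CC and GG and the alpha2 cores in capitals.
STE2: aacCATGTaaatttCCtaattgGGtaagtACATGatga
STE6: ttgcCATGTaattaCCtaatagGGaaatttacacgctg
MFA1: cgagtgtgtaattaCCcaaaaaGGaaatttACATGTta
MFA2: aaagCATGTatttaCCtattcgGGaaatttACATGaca
BAR1: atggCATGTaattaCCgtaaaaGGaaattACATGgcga
AGA2: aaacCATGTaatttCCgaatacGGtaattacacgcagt

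These runs lie at VI:82348-82385 (+) for *STE2*, XI:46474-46511 (-) for *STE6*, IV:1384938-1384975 (+) for *MFA1*, XIV:352159-352196 (+) for *MFA2*, IX:322074-322111 (+) for *BAR1* and VII:437098-437135 (-) for *AGA2*. The box began between 202 and 288 bases before the start codon. Such a box with a core was found before 6 of 6 a-specific genes, before none of *AGA1*, *GPA1*, *STE4* and *STE18*, and before 1.40% of 6657 genes. The combined rule was chosen after these letters had been seen. Each element alone is common: CATGT was present before 39.9% of genes and the box before 40.7%. The letters TGAAACA, the core of the pheromone response element bound by Ste12, were present before 9 of the 10 mating genes and before 9.79% of all genes. A match of letters is a description of the sequence and no evidence of binding.

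In galactose, each a-specific gene was more than 2-fold below its level in 2% glucose with either plasmid, as were *AGA1* and *GPA1*. With PPZ1, 8 of the 10 mating genes were at least 2-fold lower in galactose than in 2% glucose, where 21.1% of all features were at least 2-fold lower and 19.8% higher. In control cells, 8 were at least 2-fold lower, where 19.7% of features were, and 1 was at least 2-fold higher, where 23% were. The median log2 difference of the 10 genes was -1.65 with PPZ1 and -1.55 in control cells, against -0.08 over all features with PPZ1 and 0.06 in control cells. The odd ones were 2 subunits of the G protein: *STE4* was below 2-fold and *STE18* went up.

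**Figure D1:**
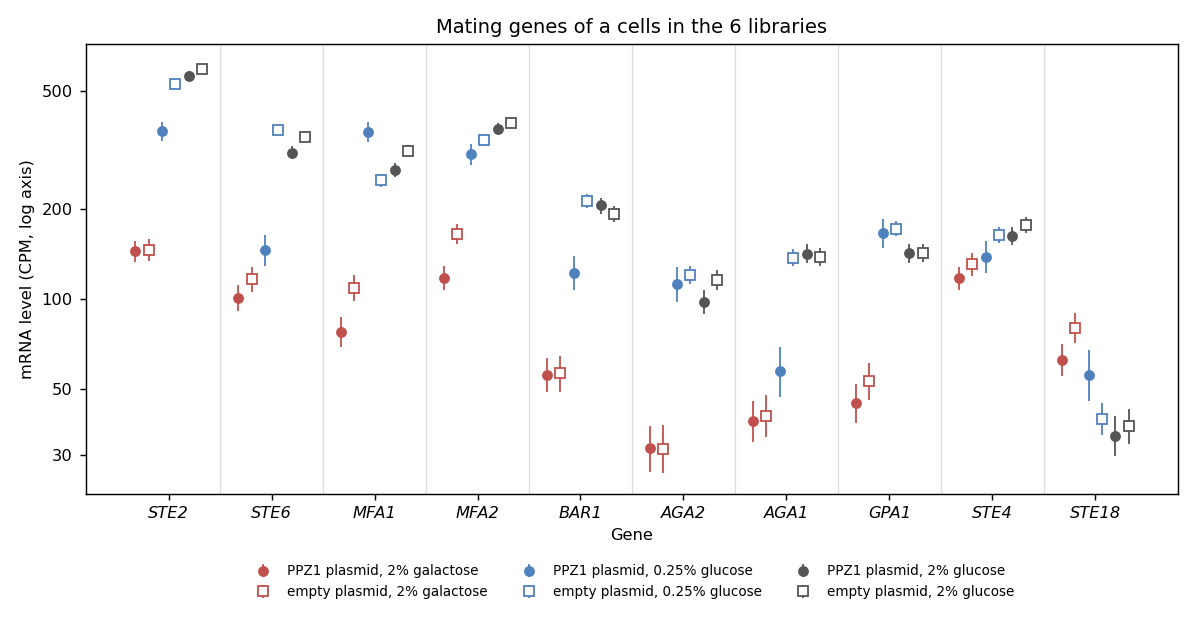
Level of each mating gene in the 6 libraries, in CPM on a log axis, with filled circles for PPZ1 cells, open squares for control cells and bars for 95% exact Poisson intervals of the counts. In 9 genes both galactose libraries lie below the 4 glucose libraries, and in *STE18* they lie above them.

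*STE2* encodes the alpha-factor receptor (YFL026W, VI:82580-83875 on the + strand). It stood at 145 CPM in PPZ1 cells and 146 CPM in control cells in galactose, at 366 CPM with PPZ1 and 526 CPM in control cells in 0.25% glucose, and at 559 CPM with PPZ1 and 592 CPM in control cells in 2% glucose. Both galactose libraries were far below the others, and within galactose and within 2% glucose the PPZ1 and control libraries were close. The log2 difference between galactose and 2% glucose was -1.94 ± 0.07 with PPZ1 and -2.01 ± 0.07 in control cells. *BAR1* (YIL015W, IX:322342-324105, +), the secreted protease that destroys alpha-factor, had the profile closest to *STE2* among the mating genes. It was at 55.8 CPM in PPZ1 cells and 56.4 CPM in control cells in galactose, at 123 CPM with PPZ1 and 214 CPM in control cells in 0.25% glucose, and at 206 CPM with PPZ1 and 193 CPM in control cells in 2% glucose. Here too the galactose libraries were lowest, with log2 differences for *BAR1* of -1.87 ± 0.10 with PPZ1 and -1.76 ± 0.11 in control cells.

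*MFA1* (YDR461W, IV:1385176-1385286, +) and *MFA2* (YNL145W, XIV:352414-352530, +) encode precursors of a-factor. Their coding sequences are shown because reads of so alike genes could be shared. In an alignment, 86 of 108 paired bases were identical (79.6%), and no identical run was longer than 11 bases. Capitals mark the bases that differ or are unpaired in the RefSeq R64 sequences.
MFA1: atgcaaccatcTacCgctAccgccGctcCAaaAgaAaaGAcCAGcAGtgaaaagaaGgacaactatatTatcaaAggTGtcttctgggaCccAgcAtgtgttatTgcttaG
MFA2: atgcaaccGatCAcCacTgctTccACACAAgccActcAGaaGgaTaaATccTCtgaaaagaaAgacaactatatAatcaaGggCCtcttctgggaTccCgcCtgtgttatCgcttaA

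*MFA1* was at 77.7 CPM in PPZ1 cells and 109.3 CPM in control cells in galactose, at 364 CPM with PPZ1 and 250.4 CPM in control cells in 0.25% glucose, and at 272 CPM with PPZ1 and 314 CPM in control cells in 2% glucose. *MFA2* was at 118 CPM with PPZ1 and 166 CPM in control cells in galactose, at 306 CPM with PPZ1 and 343 CPM in control cells in 0.25% glucose, and at 373 CPM with PPZ1 and 391 CPM in control cells in 2% glucose. Both genes were lowest in galactose, and there PPZ1 cells were below control cells. The log2 difference between galactose and 2% glucose was -1.79 ± 0.09 with PPZ1 and -1.51 ± 0.08 in control cells for *MFA1*, and -1.65 ± 0.07 with PPZ1 and -1.23 ± 0.07 in control cells for *MFA2*. Per kilobase of counted sequence these were the highest of the 10 genes in every library, with *MFA2* at 1803 and *MFA1* at 1487 CPM per kb in control cells in 2% glucose, where *STE2* had 424. *MFA2* exceeded *MFA1* per kb in 5 libraries, where the ratio of *MFA1* to *MFA2* lay between 0.678 and 0.825. In PPZ1 cells in 0.25% glucose the order was turned, at a ratio of 1.22 (95% counting interval 1.09 to 1.36).

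*STE6* (YKL209C, XI:42423-46295, -) encodes the ABC transporter that exports a-factor. It was at 101 CPM in PPZ1 cells and 117 CPM in control cells in galactose, at 146 CPM with PPZ1 and 371 CPM in control cells in 0.25% glucose, and at 310.1 CPM with PPZ1 and 351 CPM in control cells in 2% glucose. PPZ1 cells in 0.25% glucose were the lowest of the 4 glucose libraries, though still above galactose. The log2 difference between galactose and 2% glucose was -1.61 ± 0.08 with PPZ1 and -1.58 ± 0.08 in control cells, a fall also seen in both pheromone genes.

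The a-agglutinin holds mating cells together through the Aga2 peptide, which is disulphide-linked to the cell wall protein Aga1. *AGA2* (YGL032C, VII:436570-436833, -) was at 31.6 CPM in PPZ1 cells and 31.6 CPM in control cells in galactose, at 112 CPM with PPZ1 and 121 CPM in control cells in 0.25% glucose, and at 98.1 CPM with PPZ1 and 116 CPM in control cells in 2% glucose. *AGA1* (YNR044W, XIV:703699-705876, +), which is not a-specific, was at 39.1 CPM with PPZ1 and 40.8 CPM in control cells in galactose, at 57.4 CPM with PPZ1 and 138 CPM in control cells in 0.25% glucose, and at 142 CPM with PPZ1 and 138 CPM in control cells in 2% glucose. Both subunit genes fell in galactose, with a log2 difference for *AGA2* of -1.60 ± 0.14 with PPZ1 and -1.84 ± 0.14 in control cells, and for *AGA1* of -1.84 ± 0.12 with PPZ1 and -1.74 ± 0.13 in control cells. The ratio of *AGA2* to *AGA1* per kb was between 4.31 and 5.49 in 5 libraries, and 12.2 (95% counting interval 9.71 to 15.4) in PPZ1 cells in 0.25% glucose, where *AGA1* was low. That library has the length trend, and the rise over control cells was smaller with the trend subtracted, as given with the plasmid comparison. The cause of the rise was not tested.

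The 3 subunits of the G protein did not move together. *GPA1* (YHR005C, VIII:113499-114917, -) encodes the alpha subunit, which holds the beta and gamma subunits back until the receptor is bound. It was at 44.9 CPM in PPZ1 cells and 53.2 CPM in control cells in galactose, at 166 CPM with PPZ1 and 172 CPM in control cells in 0.25% glucose, and at 143 CPM with PPZ1 and 142.5 CPM in control cells in 2% glucose, with log2 differences between galactose and 2% glucose of -1.65 ± 0.12 with PPZ1 and -1.41 ± 0.11 in control cells. *STE4* (YOR212W, XV:742910-744181, +), the beta subunit that passes the signal on, was at 118 CPM with PPZ1 and 131 CPM in control cells in galactose, at 139 CPM with PPZ1 and 164 CPM in control cells in 0.25% glucose, and at 163 CPM with PPZ1 and 178 CPM in control cells in 2% glucose. It was the steadiest of the 10 genes in this comparison, with log2 differences of -0.47 ± 0.08 with PPZ1 and -0.44 ± 0.08 in control cells.

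*STE18* (YJR086W, X:586068-586400, +), the gamma subunit, was at 62.8 CPM in PPZ1 cells and 80.2 CPM in control cells in galactose, at 55.8 CPM with PPZ1 and 39.8 CPM in control cells in 0.25% glucose, and at 34.9 CPM with PPZ1 and 37.6 CPM in control cells in 2% glucose. It was the one mating gene with its highest levels in galactose, with log2 differences of 0.83 ± 0.14 with PPZ1 and 1.07 ± 0.13 in control cells. Its counted window shares 101 bases with that of the neighbouring feature YJR087W on the same strand, which itself was at 29.9 CPM with PPZ1 and 34.3 CPM in control cells in galactose and at 14.5 CPM with PPZ1 and 16.3 CPM in control cells in 2% glucose, so the value of *STE18* is uncertain. Per kb, *GPA1* was at 0.344 of *STE4* in PPZ1 cells (95% counting interval 0.290 to 0.409) and 0.367 in control cells (0.311 to 0.433) in galactose, against 0.789 in PPZ1 cells and 0.723 in control cells in 2% glucose. *STE18* was at 1.69 of *STE4* in PPZ1 cells and 1.94 in control cells in galactose, against 0.677 in PPZ1 cells and 0.670 in control cells in 2% glucose. Taken at these values, the order of the subunit mRNAs was gamma, beta, alpha in both galactose libraries, while beta was highest in both 2% glucose libraries. The place of gamma rests on the uncertain value of *STE18*, and how far reads of YJR087W add to it was not tested. Beta lay above alpha in both media. In 2% glucose alpha and gamma could not be ordered, since the interval of *STE18* over *GPA1* was 0.726 to 1.01 in PPZ1 cells and 0.797 to 1.08 in control cells.

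In all, 9 of the 10 genes were lower in both galactose libraries than in all 4 glucose libraries, which held for 36.8% of features, and *STE18* was higher in both, which held for 36.6%. A test was possible only by assuming that the medium acts alike with both plasmids, which leaves 2 residual degrees of freedom among the 6 libraries. This additive fit (edgeR's quasi-likelihood test, Benjamini-Hochberg adjusted over 5886 features) called 9 mating genes lower and 1 higher in galactose than in 2% glucose, where 63.1% of features were called, 31.5% lower and 31.6% higher. The log2 difference of *STE2* was -1.999 in the edgeR fit (adjusted p = 2.94e-05, and at most 3.43e-05 over the alternatives). For the other a-specific genes, *AGA1* and *GPA1*, the fitted differences lay between -1.46 for *MFA2* and -1.85 for *BAR1*, with edgeR adjusted p between 6.09e-05 for *AGA2* and 0.00057 for *STE6*, and at most 0.000725 over the alternatives, for *MFA1*. *STE18* was higher by 0.95 (edgeR adjusted p = 0.00684, at most 0.00724 over the alternatives). The call of *STE4*, at -0.48 with an edgeR adjusted p of 0.0382, was lost with DESeq2, where its adjusted p was 0.0723.

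**Figure D2:**
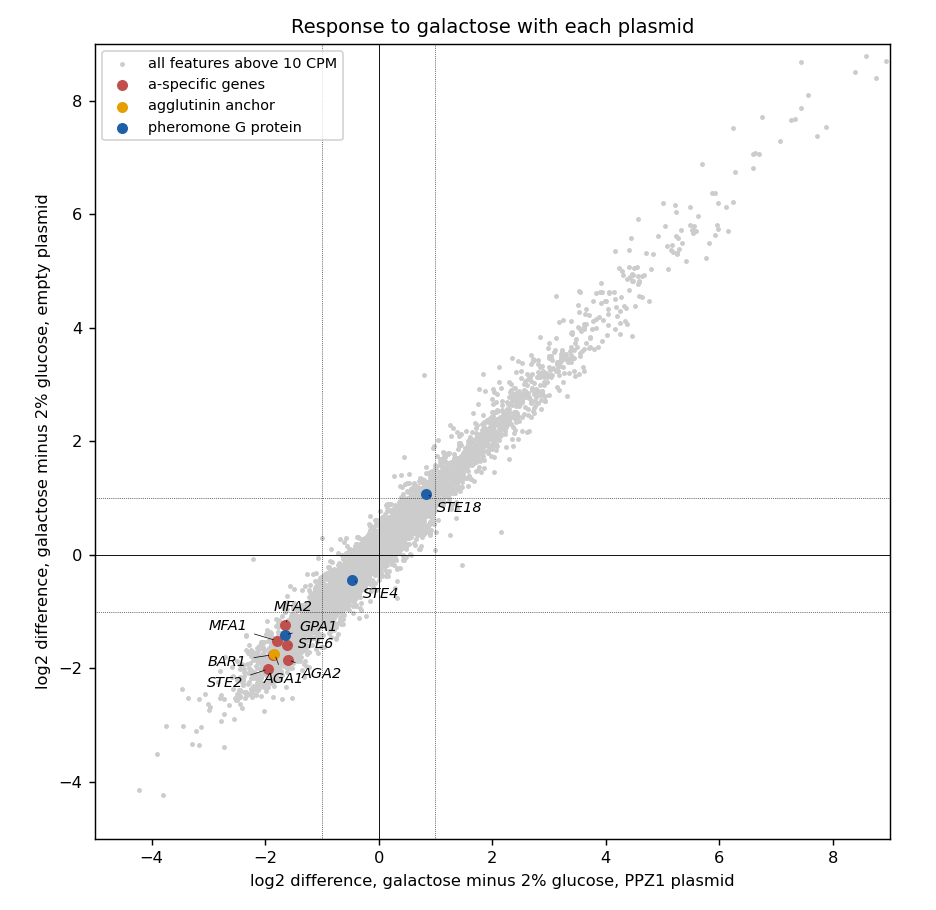
Log2 difference between galactose and 2% glucose for PPZ1 cells (x axis) and control cells (y axis), for all features above 10 CPM (grey) and the mating genes (coloured by role), with dotted lines at 2-fold. The a-specific genes, *AGA1* and *GPA1* sit together at the lower left, *STE4* lies inside the dotted lines and *STE18* lies between 0.83 and 1.07.

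The fall in galactose was alike in size with both plasmids, which share no library in this comparison. The response with PPZ1 differed from that in control cells by 0.03 log2 units for *STE6* at the least and by 0.42 for *MFA2* at the most, where the median absolute gap over 5360 features was 0.176 and the 95th percentile 0.565. Spearman's rho of the galactose responses with coding length was -0.02 across genes with either plasmid, but the running median over length was not flat: in control cells it was 0.43 at *STE2*, 0.34 at *STE4* and -0.17 at *STE6*. With it removed, *STE2* was at -2.21 with PPZ1 and -2.44 in control cells, *STE4* at -0.64 with PPZ1 and -0.78 in control cells, and *STE6* at -1.34 with PPZ1 and -1.41 in control cells. These differences between galactose and 2% glucose did not use the PPZ1 library in 0.25% glucose. The additive fit and the count against all glucose libraries did use it. Whether a lower CPM reflects less of these mRNAs per cell or more of other mRNAs cannot be told apart in such libraries.

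Between PPZ1 and control cells, the mating genes stayed inside 2-fold in galactose and in 2% glucose, as nearly all features did. In galactose, 0 of 10 differed 2-fold between PPZ1 and control cells (0.0187% of features were 2-fold higher and 0.0561% lower). The a-factor genes showed the largest differences there, of -0.49 ± 0.11 for *MFA1* and -0.49 ± 0.09 for *MFA2*, followed by *STE18* at -0.35 ± 0.12, where the median of all features was -0.13. Only 4.94% of features were lower than *MFA1* and 4.79% lower than *MFA2* in this comparison. Of the 10 genes, 9 were below 0 and 1 above, where 72.2% of all features were below 0. The signs of *STE2*, *BAR1*, *AGA1*, *STE4* and *STE6* changed over the alternative settings. In 2% glucose the differences lay between -0.24 for *AGA2* and 0.09 for *BAR1*, and again 0 of 10 reached 2-fold (0.115% of features higher, 0.0576% lower). The median of all features in 2% glucose was -0.03, and 7 of the 10 genes were below 0 and 3 above. The lowest of those 3, *GPA1* at 0.003, had 58.1% of features below it. The signs of *GPA1* and *MFA2* changed over the alternative settings. In the additive fit, 0 mating genes and 1 of all features (0.017%) were called between the plasmids by edgeR, and 247 features had an unadjusted p below 0.05. DESeq2 called 3 features and none of the mating genes.

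In 0.25% glucose the PPZ1 library had lower levels of most of the longer mating genes. The log2 difference from control cells was -1.34 ± 0.09 for *STE6*, and *AGA1* was at -1.25 ± 0.14, so 2 of 10 were at least 2-fold lower, where 9.96% of features were lower and 0.801% higher. *BAR1* was at -0.80 ± 0.10, *STE2* at -0.52 ± 0.06 and *STE4* at -0.24 ± 0.10. *GPA1*, at 1419 bases longer than *STE2* (1296) and *STE4* (1272), was an exception at -0.05 ± 0.09. The short genes differed less or the other way: *MFA2* was at -0.16 ± 0.07, *AGA2* at -0.11 ± 0.11, *STE18* at 0.48 ± 0.16 and *MFA1* at 0.54 ± 0.06. The median of all features was -0.24. Over the alternative settings, *MFA2* ran from -0.52 to 0.14, *AGA2* from -0.46 to 0.19, *STE4* from -0.24 to 0.05 and *GPA1* from -0.05 to 0.29, so their signs depend on the processing. The signs of *STE6*, *AGA1*, *BAR1*, *STE2*, *STE18* and *MFA1* did not change.

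Over all genes this comparison had a Spearman's rho with coding length of -0.69, a description across genes of the same 2 libraries. The median log2 difference was 0.33 in the shortest 10% of genes and -0.86 in the longest 10%, and the PPZ1 library was also the shallowest. The mating genes run in coding length from 111 bases for *MFA1* to 3873 for *STE6*. With a running median over length subtracted, *STE6* was at -0.48, *AGA1* at -0.62, *BAR1* at -0.28, *STE2* at -0.25 and *MFA1* at 0.18, while *MFA2* was at -0.52, *AGA2* at -0.46, *GPA1* at 0.29, *STE18* at 0.17 and *STE4* close to 0, and 0 of 10 reached 2-fold. With median-of-ratios scaling *AGA1* was at -0.998, just inside 2-fold, and *STE6* at -1.09. At the lengths of *MFA1* and *MFA2*, 111 and 117 bases, the running median was nearly the same, at 0.36 and 0.35. Subtracting it could therefore hardly change their ratio, and it cannot decide whether the turned order goes with the trend. At *AGA2* and *AGA1* it was 0.35 and -0.63. The rise of the *AGA2* to *AGA1* ratio in PPZ1 over control cells was 1.14 log2 units, and 0.16 without the trend.

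**Figure D3:**
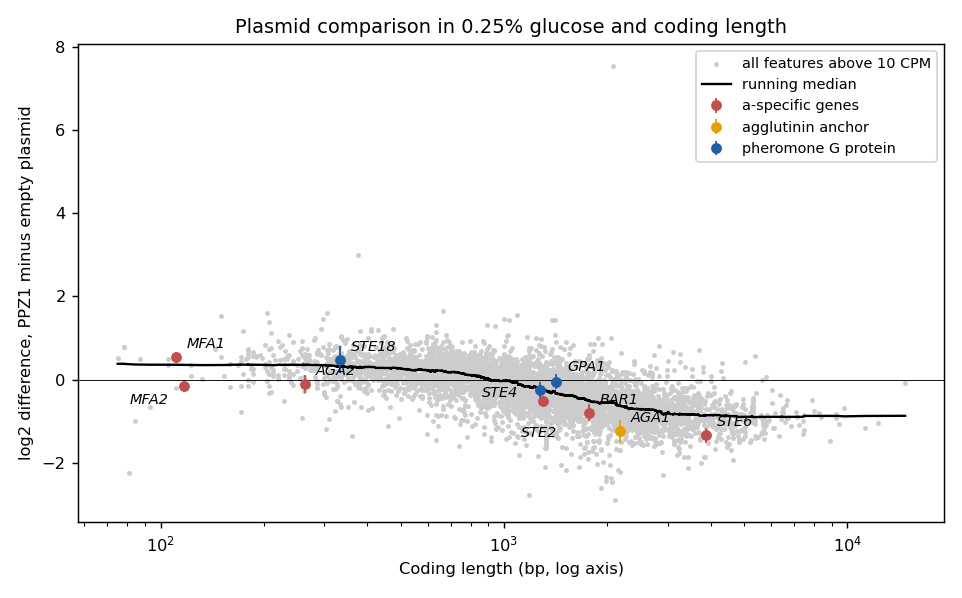
Log2 difference between PPZ1 and control cells in 0.25% glucose against coding length (log axis), with all features above 10 CPM in grey, their running median in black and the mating genes coloured by role, with bars for 95% counting intervals. The black line falls with length, and *STE6*, *AGA1* and *BAR1* sit below 0 in the long range while *MFA1* and *STE18* sit above 0 in the short range.

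In control cells the mating genes stayed inside 2-fold between 0.25% and 2% glucose, as nearly all features did. The median log2 difference of all features was 0.13, and 5 of the 10 genes were above 0 and 5 below. *AGA1*, at -0.005, had 24.3% of features below it. The signs of *STE6*, *AGA2*, *BAR1* and *STE18* changed over the alternative settings. Only 2.65% of features were lower than *MFA1*, 7.06% lower than *MFA2* (-0.19) and 8.15% lower than *STE2* (-0.17). The differences between 0.25% and 2% glucose lay between -0.32 for *MFA1* and 0.27 for *GPA1*, and 0 of 10 reached 2-fold (0.897% of features higher, 0.134% lower). With PPZ1 the same comparison gave 2 genes at least 2-fold lower, *AGA1* at -1.29 ± 0.15 and *STE6* at -1.08 ± 0.09, where 4.76% of features were lower and 1.67% higher. *BAR1* was at -0.74 ± 0.10 and *STE2* at -0.61 ± 0.06, while *MFA1* was at 0.42 ± 0.07 and *STE18* at 0.66 ± 0.17. The trend with coding length was again present, with a Spearman's rho of -0.60. With it removed, *AGA1* was at -0.90, *STE6* at -0.52, *BAR1* at -0.43, *STE2* at -0.51, *MFA1* at -0.003 and *STE18* at 0.31, and 0 of 10 reached 2-fold. This comparison and that of the plasmids in 0.25% glucose share the same PPZ1 library and are not independent. The additive edgeR fit called 24 features (0.408%, with 0.306% higher and 0.102% lower) between 0.25% and 2% glucose and 0 mating genes, with 359 features at an unadjusted p below 0.05, and DESeq2 called 50 features and again 0 mating genes.

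The rest of the mating pathway was mixed in galactose. For the 2-fold counts below, 21.1% of all features were lower and 19.8% higher with PPZ1, and 19.7% lower and 23% higher in control cells. Of 7 genes that process a-factor, 1 was at least 2-fold lower with either plasmid: *STE14*, the methyltransferase that caps the farnesylated cysteine, was at 13.7 CPM in PPZ1 cells and 12.4 CPM in control cells in galactose, against 57.5 CPM with PPZ1 and 51.3 CPM in control cells in 2% glucose (edgeR log2 -2.07, adjusted p = 3.6e-05). *STE24*, a protease of a-factor maturation, was at 246 CPM with PPZ1 and 240 CPM in control cells in galactose, against 143 CPM with PPZ1 and 141 CPM in control cells in 2% glucose. *STE23*, another a-factor protease gene, had log2 differences of -0.56 with PPZ1 and -0.63 in control cells. By the edgeR fit 2 of the 7 were higher and 3 lower, where 31.6% of all features were called higher and 31.5% lower, so the count of higher genes is near that share. The farnesyltransferase gene *RAM2* was at 103 CPM with PPZ1 and 91.2 CPM in control cells in galactose and 73.4 CPM with PPZ1 and 60.0 CPM in control cells in 2% glucose.

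Of 18 genes of pheromone signalling, 6 were at least 2-fold lower in galactose than in 2% glucose with PPZ1 and 6 in control cells, 5 of them in both, while 1 with PPZ1 and 2 in control cells were higher. At 2-fold, 21.1% of all features were lower and 19.8% higher with PPZ1, and 19.7% lower and 23% higher in control cells. The edgeR fit called 9 lower and 3 higher, against 31.5% and 31.6% of all features. *FAR1*, which arrests the cell cycle in response to pheromone, was at 13.2 CPM in PPZ1 cells and 20.0 CPM in control cells in galactose, against 154 CPM in PPZ1 cells and 169 CPM in control cells in 2% glucose. *SST2*, whose GTPase activator turns Gpa1 off, had log2 differences of -2.37 with PPZ1 and -2.01 in control cells. The transcription factor gene *STE12* was at -1.73 with PPZ1 and -1.83 in control cells, and the MAP kinase genes were lower too, *FUS3* at -1.28 with PPZ1 and -1.16 in control cells and *KSS1* at -1.74 with PPZ1 and -1.72 in control cells. Higher or close to 0 were *STE11*, the first kinase of the MAP kinase module, at 1.24 with PPZ1 and 1.20 in control cells, its adaptor gene *STE50* at 0.73 with PPZ1 and 1.08 in control cells, and the scaffold gene *STE5* at -0.05 with PPZ1 and 0.04 in control cells. *STE20*, the kinase above Ste11, was at -1.03 with PPZ1 and just inside 2-fold in control cells, and *PTP3*, a phosphatase of Fus3, was at -0.96 with PPZ1 and -1.19 in control cells. The most abundant genes of the list were *CDC42*, a polarity GTPase, at -0.70 with PPZ1 and -0.49 in control cells, and *AKR1*, a palmitoyltransferase, at 0.21 with PPZ1 and 0.26 in control cells.

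Among 18 genes known to be induced by pheromone, 3 were at least 2-fold higher with either plasmid and 1 was lower, of 12 above the minimum with PPZ1 and 13 in control cells. Of all features, 19.8% were at least 2-fold higher and 21.1% lower with PPZ1, and 23% higher and 19.7% lower in control cells. The count of higher genes is near those shares. The edgeR fit called 3 of 17 higher and 6 lower, the lower count being close to the 31.5% of all features called lower (31.6% were called higher). The higher ones were the membrane protein genes *PRM4*, with log2 differences of 3.45 with PPZ1 and 3.15 in control cells, *PRM8*, at 2.13 with PPZ1 and 2.43 in control cells, and *PRM9*, at 1.44 with PPZ1 and 1.498 in control cells. *KAR4*, a regulator of nuclear fusion genes, was at -1.62 with PPZ1 and -1.16 in control cells. The abundant *TEC1*, a transcription factor gene of filamentous growth, was at -0.35 with PPZ1 and 0.15 in control cells. *FUS1*, a widely used reporter of the pathway, was at 20.2 CPM in PPZ1 cells and 15.1 CPM in control cells in galactose, against 32.5 CPM in PPZ1 cells and 30.5 CPM in control cells in 2% glucose.

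Of 15 regulators of cell type, 13 were above the minimum, and 5 of these were at least 2-fold higher and 1 lower with either plasmid, where 19.8% of all features were higher and 21.1% lower with PPZ1, and 23% higher and 19.7% lower in control cells. The gene of the activator of the a-specific set, *MCM1*, was at 70.3 CPM in PPZ1 cells and 80.2 CPM in control cells in galactose, against 59.9 CPM in PPZ1 cells and 62.7 CPM in control cells in 2% glucose (edgeR log2 0.27, adjusted p = 0.233). The higher ones were *RME1*, a repressor of meiosis, with log2 differences of 1.26 with PPZ1 and 1.18 in control cells, and *HMRA1* (1.45 with PPZ1 and 1.51 in control cells), *HMRA2* (1.03 with PPZ1 and 1.13 in control cells), *HMLALPHA2* (1.13 with PPZ1 and 1.70 in control cells) and *MATALPHA2* (1.37 with PPZ1 and 1.45 in control cells). The last 4 are features of the mating type loci, whose silent and expressed copies share sequence. Their reads cannot be placed with certainty, so the 4 may not count as separate genes among the 5 higher ones. *MATALPHA1*, in contrast, was at or below 1.9 CPM in each library. The lower one was *HO*, the endonuclease of mating type switching, at -2.21 with PPZ1 and -2.31 in control cells. *TUP1*, which encodes the corepressor recruited by alpha2, was at 63.7 CPM in PPZ1 cells in 0.25% glucose, against 293 CPM in control cells, a log2 difference of -2.18, or -1.56 without the length trend. Its partner gene *CYC8* was at 65.3 CPM in PPZ1 cells there, against 169 CPM in control cells, a log2 difference of -1.36, or -0.53 without the trend. In the same comparison *DIG1* (-1.05), *STE12* (-1.21), *FIG2* (-1.46) and *HO* (-1.32) were also past 2-fold, and without the trend they were at -0.74, -0.65, -0.56 and -0.81. Between 0.25% and 2% glucose with PPZ1, which uses that library again, 4.76% of all features were at least 2-fold lower and 1.67% higher. Lower were *TUP1* (-2.06, or -1.67 without the trend), *CYC8* (-1.20, or -0.65), *FIG2* (-1.23, or -0.61) and *DIG1* (-1.04, or -0.89). Higher were *PRM4* (1.54, or 1.39), *MATALPHA2* (1.37, or 1.11) and *ASG7* (1.01, or 0.76).

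**Figure D4:**
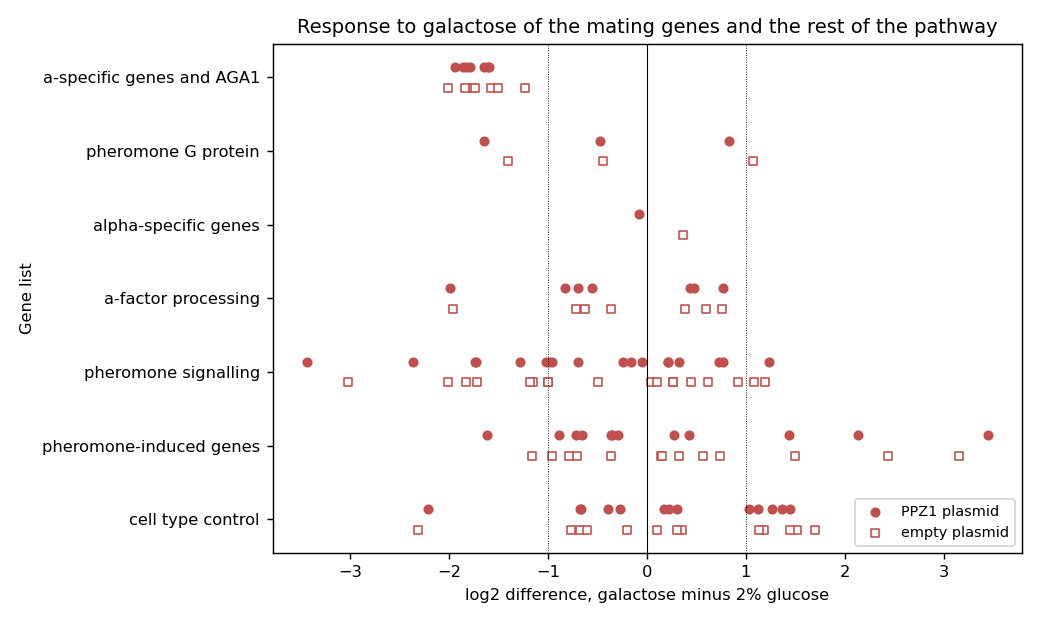
Log2 difference between galactose and 2% glucose for each gene above 10 CPM, by gene list, with filled circles for PPZ1 cells and open squares for control cells. The a-specific genes all lie between -1.23 and -2.01, whereas the signalling, pheromone-induced and cell type lists spread to both sides of 0.

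The 3 genes closest to *STE2* in profile over the 6 libraries, of 3332 with a mean of at least 50 CPM, were *DIP2*, *ARB1* and *NOP1*, at a root mean square distance of 0.05, 0.06 and 0.07 log2 units. *NOP1*, the gene of the nucleolar protein fibrillarin, was at 193 CPM in PPZ1 cells and 165 CPM in control cells in galactose, at 464 CPM with PPZ1 and 636 CPM in control cells in 0.25% glucose, and at 677 CPM with PPZ1 and 705 CPM in control cells in 2% glucose. Among the mating genes *BAR1* was nearest, at 0.12, and *STE18* the farthest, at 1.28. The 3 genes closest to the median profile of the a-specific genes were *ERG11*, *SXM1* and *KCC4*, at 0.02, 0.06 and 0.06. Each distance rests on the same 6 libraries and is a description only.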

How the data were processed

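Per the sources, the authors aligned the reads with Bowtie2 and used SeqMonk 0.32.1 to count them per coding sequence, extended by 50 bases on both sides, taking reads of 1 strand and dropping duplicates. Dropping duplicates can lower the counts of short abundant genes such as *MFA1* and *MFA2*. For control cells in 0.25% glucose the deposited values are read counts. For the other 5 libraries the authors deposited a signal, the counts times 1 factor per library, and division by it returned whole reads (tolerance 0.01) for 100% of values. For the genome build, none was given in the sources used here. All 10 genes had the same coordinates in RefSeq R64, as had 5928 of 5957 features matched by name. CPM kept the authors' scaling. A pseudocount of 1 CPM was added before log2, so low genes are understated, and features with a mean of at least 10 CPM in the 2 libraries compared were used. With 1 library per group, a fold of 2 was used as a description. The recovered reads were fitted with an additive model of plasmid and medium in edgeR 4.0.16 (TMM, quasi-likelihood test, false discovery rate 0.05), with DESeq2 1.42.0 as an alternative, in R 4.3.3. The code was tested on simulated data. Genes were named by rule: all 10 mating genes, *PPZ1*, in the other lists the 2 genes of highest level and those past 2-fold, and the nearest profiles. *FUS1*, *STE5*, *RAM2*, *MCM1* and *MATALPHA1* were added after their values were seen. The genes and lists were chosen with earlier results of these data known. In 5 lines of the table the values had been left out for this work, none of them a mating gene.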

Additional observations from a re-analysis of the deposited data

Results flagged for a closer look

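*MFA1*, *BAR1* and *STE18* had effects of opposite sign in settings set side by side. With 1 library per group each difference between the effects was not tested, and each rests on the PPZ1 library in 0.25% glucose, with its trend with coding length. The *MFA1* difference between 0.25% and 2% glucose was 0.42 with PPZ1 and -0.32 in control cells, a gap of 0.74. Without the trend these were -0.003 with PPZ1 and -0.26 in control cells, a gap of 0.25 with no opposite signs. For *BAR1* the same differences were -0.74 with PPZ1 and 0.15 in control cells, a gap of -0.89, and without the trend -0.43 with PPZ1 and -0.02 in control cells, a gap of -0.41, again with no opposite signs. Over 5163 features the absolute gap between these responses had a median of 0.413 and a 95th percentile of 1.19, so both genes lie inside that range. The *MFA1* difference between PPZ1 and control cells was -0.49 in galactose and 0.54 in 0.25% glucose, a gap of -1.02, or -0.50 without the trend. Its gap between 0.25% glucose and 2% glucose (-0.21) is the same 0.74 over the same 4 libraries and no second result. For *STE18* the plasmid difference was -0.35 in galactose and 0.48 in 0.25% glucose, a gap of -0.83, or -0.40 without the trend.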

How the results depend on the processing

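No direction of a mating gene turned where it had been called, and the 8 genes lower in galactose stayed at least 2-fold lower under every scaling, pseudocount and minimum tried. At a threshold of 3-fold, 4 genes were past it in control cells in place of 9. The counts that rest on the PPZ1 library in 0.25% glucose changed most. Between PPZ1 and control cells in 0.25% glucose, 2 genes became 1 with median-of-ratios and with upper-quartile scaling, and 0 at 3-fold or without the length trend. Between 0.25% and 2% glucose with PPZ1, 2 became 1 with either scaling, 5 at 1.5-fold, and 0 at 3-fold or without the length trend. Over all features, median-of-ratios scaling moved the median of the plasmid difference in 0.25% glucose to 0.01, where it was -0.24, and the split of higher to lower features to 124 and 231, where it was 42 and 522. It also moved the split between 0.25% and 2% glucose with PPZ1 to 142 and 205 (87 and 248 as reported), and that between the plasmids to 2 and 1 in galactose (1 and 3) and 10 and 3 in 2% glucose (6 and 3). Upper-quartile scaling moved the split in galactose to 988 and 1415 in control cells (1243 and 1064), with a median of -0.20. In the additive fit, the 1 feature called between the plasmids became 3 with DESeq2, 9 without the galactose libraries, 67 without the 0.25% glucose libraries and 4 without the 2% glucose libraries, with 0 mating genes in each, and the 24 called in 0.25% glucose became 50 with DESeq2. Of 140 fitted values of mating genes under alternatives, 139 kept their side of the threshold, and *STE4* lost it in galactose with DESeq2. The cause of these changes was not tested. No paired analysis was possible because each group is 1 library with no replicate to pair by number, though the additive fit already compares the media within each plasmid. Counting errors of the mating genes rest on 106 to 3568 reads per library.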
